A study of Homo sapiens with 74 samples.

Results

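Granule proteins of neutrophils and eosinophils were followed through their messenger RNA in 2 human erythroleukaemia cell lines after loss of the DOT1L complex. DOT1L is the methyltransferase of lysine 79 of histone H3, and ENL (gene symbol MLLT1) is a subunit of its complex that binds acylated histones. The 10 genes were named in a list (LYZ, PRG2, PRG3, MPO, ELANE, PRTN3, AZU1, CTSG, RNASE2 and CLC) and found by symbol among the 28131 genes of each count table. The list was chosen by the measured changes of LYZ and PRG2 in these same RNA-seq comparisons, large for both genes in K562 and, for PRG2 alone, large and opposite in HEL. Their changes are therefore given as a description, with no test.

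Polyadenylated RNA of K562 and HEL, both established human erythroleukaemia lines, was sequenced in 5 groups. K562 was wild type (control), DOT1L-/- (DOT1L KO) or knocked out for ENL (ENL KO), and HEL was a control or carried a DOT1L knockdown (KD). Of 13 RNA-seq samples, K562 controls 2 and 3 had identical counts throughout and were taken as 1 sample, leaving 12 libraries: 2 K562 control, 3 DOT1L KO, 3 ENL KO, 2 HEL control and 2 HEL KD. Whether a knockout line is 1 clone, what made the knockdown, and whether replicates were separate cultures are not given in the sources used here, so the p-values measure the spread between these samples, which may be technical. Line, knockout against knockdown, and fragment against read counting go together and cannot be told apart. A lane is named in the labels of the K562 control and DOT1L KO libraries but not of the ENL KO libraries, so a batch and the ENL knockout cannot be told apart.

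A K562 library held 15404944 to 29236703 counts and a HEL library 12151495 to 12811688. DOT1L itself was still counted after targeting, with a log2 fold change of -0.53 in the K562 KO and -1.64 in the HEL KD, and MLLT1 had -0.48 in the ENL KO, each lower in every library than in its controls. All 10 genes of an erythroid marker list (among them GATA1, KLF1, TAL1 and ALAS2) were expressed in both lines, with a summed level of 5310 to 7328 CPM (each count divided by the TMM-scaled library total) in K562 and 5780 to 8624 CPM in HEL.

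Mature granulocytes carry their killing and digestive proteins in granules that are loaded in a fixed order during development in the bone marrow. Primary (azurophil) granules of neutrophils are filled at the promyelocyte stage with myeloperoxidase (MPO) and the serine protease family members neutrophil elastase (ELANE), proteinase 3 (PRTN3), cathepsin G (CTSG) and the inactive homologue azurocidin (AZU1). Lysozyme (LYZ), which cleaves the peptidoglycan of bacterial walls, is shared by neutrophils and monocytes. Eosinophils carry major basic protein (PRG2), its homologue PRG3, the ribonuclease RNASE2 and the galectin CLC, which forms Charcot-Leyden crystals. Erythroid cells are not the usual site of any of these proteins, although blood progenitors can hold low levels of several such transcripts.

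Each line transcribed LYZ and PRG2 well above the other members. Both genes passed the filter on low counts in each line, and the other 8 members passed in neither. LYZ lies at chr12:69348354-69354233 on the plus strand and PRG2 at chr11:57386787-57390657 on the minus strand (GRCh38, positions as the tables list them), with 4 and 6 merged exons and exonic lengths of 1516 and 1544 bases. No other gene of the tables overlapped either of them.

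LYZ, the lysozyme gene, had 35.4 and 32.6 CPM in the K562 controls. It had 317, 323 and 291 CPM in the DOT1L KO libraries and 20.5, 19.5 and 19.4 CPM in the ENL KO libraries. The 3 K562 groups thus did not overlap, with DOT1L KO on top and ENL KO at the bottom. The group means were 34.0 ± 1.95 CPM (SD, n = 2) in the controls, 310 ± 17.1 CPM (SD, n = 3) after DOT1L KO and 19.8 ± 0.619 CPM (SD, n = 3) after ENL KO. The fitted log2 fold change against control was 3.19 (SE 0.072) for DOT1L KO and -0.78 (SE 0.074) for ENL KO, and DOT1L KO exceeded ENL KO by 3.97 (SE 0.066). In HEL the same gene had 44.1 and 50.6 CPM in the controls and 49.4 and 46.7 CPM after KD. These groups overlapped, with means of 47.3 ± 4.57 CPM and 48.0 ± 1.91 CPM (SD, n = 2 each) and a log2 fold change of 0.02 (SE 0.067).

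PRG2, the gene of eosinophil major basic protein, had 9.16 and 9.55 CPM in the K562 controls. It had 116, 108 and 99.3 CPM after DOT1L KO and 4.06, 4.43 and 4.30 CPM after ENL KO. The order of the K562 groups was that of LYZ, again without overlap. The means were 9.36 ± 0.278 CPM (SD, n = 2) in the controls, 108 ± 8.15 CPM (SD, n = 3) after DOT1L KO and 4.26 ± 0.188 CPM (SD, n = 3) after ENL KO. The log2 fold change was 3.52 (SE 0.093) for DOT1L KO, -1.13 (SE 0.116) for ENL KO and 4.66 (SE 0.089) between the knockouts. HEL started from a high level and went the other way: PRG2 had 139 and 143 CPM in the controls and 36.8 and 35.1 CPM after KD. The HEL groups did not overlap. Their means were 141 ± 3.25 CPM and 36.0 ± 1.19 CPM (SD, n = 2 each). The log2 fold change was -1.97 (SE 0.054). Only 18 of the 12635 genes tested in HEL had a lower log2 fold change, whereas 365 of the 14301 tested in K562 had a higher one after DOT1L KO. The change of PRG2 in HEL minus that in K562 was -5.47 (SE 0.112) on the log2 scale, and that of LYZ was -3.15 (SE 0.106).

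**Figure D1:**
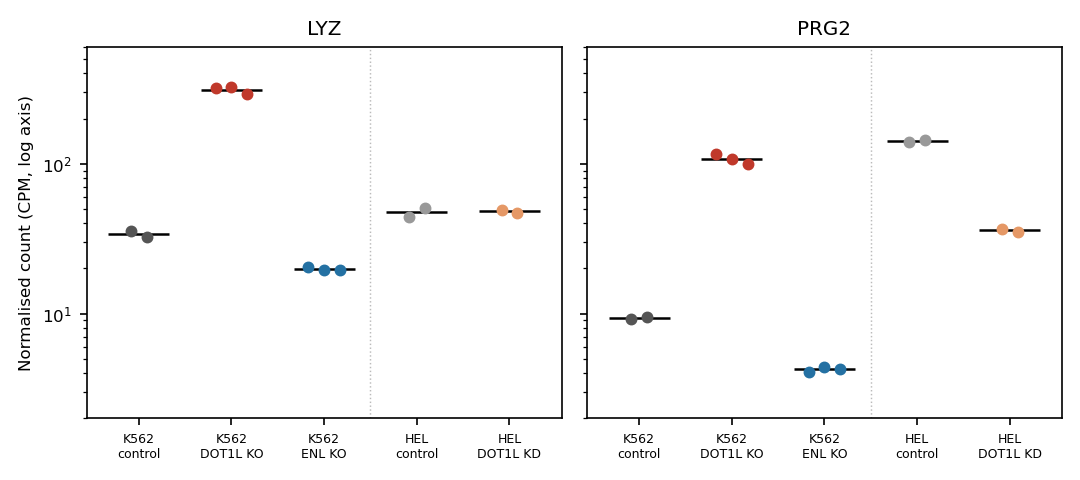
Normalised counts of LYZ (left) and PRG2 (right) in CPM on a log axis for the 5 groups; each point is 1 library, each line a group mean, and the dotted line parts the K562 from the HEL table. In K562 both genes are highest after DOT1L KO and lowest after ENL KO, and in HEL only the PRG2 groups lie apart.

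These counts stand against a background in which a large share of genes changed. Calls were made at an adjusted p of 0.05 (quasi-likelihood test of edgeR, Benjamini-Hochberg adjusted over all genes tested). After DOT1L KO 51.1% of the genes were called (26.9% higher, 24.2% lower), and after ENL KO 41.0% (18.8% higher, 22.2% lower). Between the knockouts 60.2% were called (31.8% higher in DOT1L KO, 28.3% lower), and after the HEL KD 55.0% (27.0% higher, 28.0% lower). The fitted coefficient of variation between replicates, beyond counting error, was 6.34% in K562 and 1.83% in HEL. The HEL p-values thus rest on a smaller spread, which may be technical. In the test of a difference between the lines 38.9% were called (19.8% higher in HEL, 19.1% lower). That test used 1 estimate of spread for both lines, so its p-values can be too small for genes that vary more in K562. Of the HEL calls 49.1% were higher after KD, and 61.4% with upper-quartile scaling. Both members that could be tested were among the K562 calls and PRG2 alone among the HEL calls, which restates how they were picked. With any 1 library left out, or with another scaling, filter, tool or block, the log2 fold change of LYZ stayed between 3.13 and 3.25 after DOT1L KO and between -0.83 and -0.72 after ENL KO. PRG2 stayed between 3.47 and 3.58, between -1.17 and -1.10, and in HEL between -2.01 and -1.90. The value of LYZ in HEL changed sign, from -0.08 to 0.12. RNA was taken from whole cultures, so a change in the number of cells that express a gene and a change in RNA per cell cannot be told apart.

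Per length, LYZ was the more abundant of the pair in K562 and PRG2 in HEL controls. The ratio of LYZ to PRG2 in CPM per kilobase of exon was 3.71 ± 0.322 (SD, n = 2) in K562 controls, 2.94 ± 0.133 (SD, n = 3) after DOT1L KO and 4.75 ± 0.356 (SD, n = 3) after ENL KO. The 3 groups of ratios did not overlap, and their means differed less than the levels of either gene. In HEL the ratio was 0.341 ± 0.0251 in controls and 1.36 ± 0.00904 after KD (SD, n = 2 each). PRG2 was thus the more abundant before KD and LYZ after it, with the level of LYZ overlapping between the groups. Ranked by CPM per kilobase among all genes of its library, LYZ moved from places 3288 to 3540 in K562 controls to places 220 to 237 after DOT1L KO and 4971 to 5189 after ENL KO. PRG2 moved from places 7431 to 7540 to places 953 to 1099 and 9197 to 9371. In HEL, PRG2 held places 677 to 693 in controls and 3003 to 3165 after KD.

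The other eosinophil granule genes were close to the limit of counting. PRG3, which encodes the homologue of major basic protein, lies at chr11:57376769-57381150 on the minus strand, with 5.637 kb between it and PRG2. It had 0 and 1 counts in the K562 controls, 7, 4 and 5 counts after DOT1L KO and 0 counts in all 3 ENL KO libraries. Every DOT1L KO library thus held more PRG3 counts than any other K562 library. Relative to total counts PRG3 was 9.67 times as high after DOT1L KO as in the controls, with an exact 95% counting interval of 1.50 to 405, and at least 4.30-fold higher than after ENL KO, taken against the floor of 3 counts in the group that a count of 0 allows. This interval and floor cover counting error only, since PCR copies were not marked. With no filter on low counts, the edgeR test gave PRG3 an adjusted p of 0.0657 against control and 0.00441 against ENL KO.

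The sequence before the PRG3 start is shown because PRG3 sits beside PRG2 and its few counts fell in the same knockout. The table of RefSeq promoters (GRCh38.p14) used here was matched for 6 of the 10 members, LYZ, PRG2, MPO and ELANE not being among them. The 250 bases before the start, chr11:57381151-57381400, are given on the minus strand, 5′ to 3′, with capitals for matches to TTATCA and TATAAA.
PRG3: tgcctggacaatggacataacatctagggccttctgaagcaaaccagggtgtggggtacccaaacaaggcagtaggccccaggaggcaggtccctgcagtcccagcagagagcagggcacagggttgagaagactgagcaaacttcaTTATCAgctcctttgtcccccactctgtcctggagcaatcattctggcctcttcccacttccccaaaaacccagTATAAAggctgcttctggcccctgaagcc
The TATA-box motif TATAAA began at position -29 from the start, and 10.7% of 35116 human promoters of the same length held it on either strand. TTATCA, which reads as a GATA-type motif on the other strand, began at position -103 and was held by 6.66% of them. The other GATA-type motif searched, AGATAA (9.17% of promoters), the PU.1-type motif GAGGAA (23.6%) and the C/EBP-type motif TTGCNNAA (9.05%) had no match on either strand of this window. The motifs did not overlap, and a match describes letters only.

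CLC, the Charcot-Leyden crystal galectin (chr19:39731255-39738029), had 2 and 2 counts in the K562 controls, 0, 0 and 2 after DOT1L KO and 0, 1 and 0 after ENL KO. RNASE2, the eosinophil-derived neurotoxin (chr14:20955471-20956435), had 0 counts in all 12 libraries. A count of 0 allows RNASE2 a level of up to 0.0174 CPM over the K562 libraries and 0.0600 CPM over the HEL libraries, from 3 counts. In HEL, PRG3 and CLC also had 0 counts in every library, in the controls where PRG2 had 139 and 143 CPM as well.

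Of the neutrophil granule members, MPO, PRTN3 and AZU1 did not show the rise of LYZ after DOT1L KO. ELANE and CTSG had too few K562 counts to tell. MPO, the peroxidase that makes hypochlorous acid (chr17:58269856-58280935), had 11 and 10 counts in the K562 controls, 3, 1 and 1 after DOT1L KO and 2, 3 and 4 after ENL KO. Both controls were above every knockout library. Relative to total counts, the controls were 6.95 times as high as DOT1L KO (exact 95% counting interval 2.55 to 23.6) and 3.12 times as high as ENL KO (1.37 to 7.73). With no filter on low counts, the edgeR test gave MPO an adjusted p of 0.00229 for DOT1L KO and 0.0783 for ENL KO. Its highest level in any library was 0.511 CPM, and HEL had 0 MPO counts.

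ELANE, PRTN3 and AZU1 form a cluster on chromosome 19 (chr19:852303-856243, chr19:840985-848175 and chr19:827837-832018, all on the plus strand). ELANE had 1 and 0 counts in the K562 controls and 0 in every knockout library. PRTN3 had 3 and 1 counts in the controls and 0 in every knockout library. AZU1 had 4 and 2 counts in the controls, 0, 0 and 6 after DOT1L KO and 2, 0 and 0 after ENL KO, so that its groups overlapped and 1 DOT1L KO library held all the counts of its group. None of the 3 had a count in HEL. CTSG, a protease gene on chromosome 14 (chr14:24573518-24576260), was the reverse: it had no count in K562, and 2 and 3 counts in the HEL controls and 0 and 4 after KD. At this depth no difference of ELANE, PRTN3, AZU1, CTSG or CLC between a knockout or knockdown and its controls was outside the counting error, except that the interval for PRTN3 after DOT1L KO, 0 to 0.915 times the control level, ended just below 1.

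**Figure D2:**
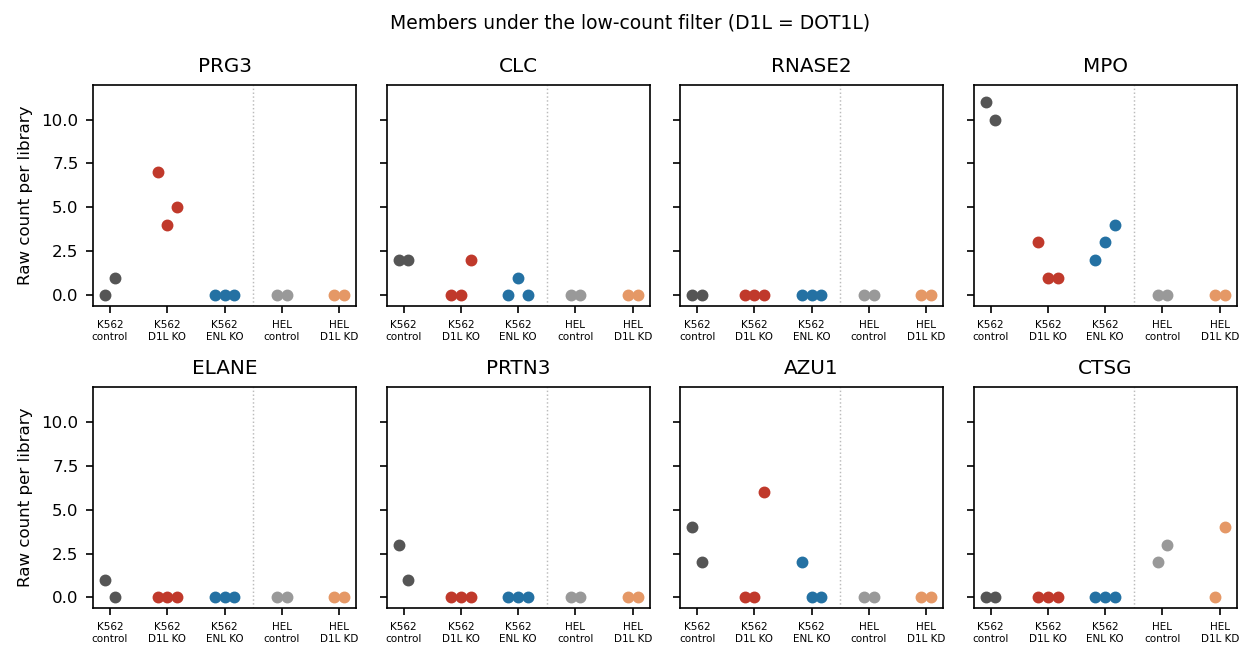
Raw counts per library (not scaled for depth) of the 8 members that did not pass the filter on low counts, 1 point per library, in the 5 groups; the dotted line parts the 2 tables. PRG3 counts gather in the DOT1L KO libraries of K562, MPO counts in the K562 controls, and CTSG counts in HEL.

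Most other neutrophil granule genes were scarce too. Of 21 such genes, 14 had under 3 counts in every K562 library and 16 in every HEL library, among them the defensins and CAMP. LCN2, the siderophore binder lipocalin 2, was an exception in HEL, with 25.4 and 23.8 CPM in the controls and 24.1 and 23.3 CPM after KD. The HEL groups of LCN2 overlapped. In K562 3 of the 21 were tested, and RNASE6 and LCN2 passed the filter only through the DOT1L KO libraries, so no test of a higher level there is read from them. RNASE6, a secreted ribonuclease, had 2 and 3 counts in the controls, 17, 18 and 12 after DOT1L KO and 5, 4 and 5 after ENL KO. LCN2 had 8 and 4 counts in the controls, 7, 18 and 16 after DOT1L KO and 1, 6 and 2 after ENL KO, and its control and DOT1L KO groups overlapped. The remaining gene, CFD, was not called in either knockout, and none of 4 genes was called after the HEL KD.

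Genes that process, pack or inhibit granule proteins were expressed in both lines and changed in both directions. Of 22 such genes 18 were tested in K562. After DOT1L KO, 3 rose and 9 fell, with a median log2 fold change of -0.15, where 26.9% of all genes rose and 24.2% fell. GNPTG, a subunit of the enzyme that tags lysosomal proteins, and the granule membrane tetraspanin CD63 rose by 0.90 and 0.54. CTSC, the cathepsin that activates granule serine proteases, and SRGN, the serglycin core that packs them, had log2 fold changes of -0.88 and -0.81. After ENL KO 5 rose and 5 fell (median 0.09), where 18.8% and 22.2% of all genes did. GNPTG and the protease inhibitor SERPINB6 had 0.42 and 0.32, and SRGN had -1.02. SERPINB8, another serpin, went from 17 counts over the controls to 3 over ENL KO, a ratio of 7.57 with a counting interval of 2.19 to 40.3, and lost its call without K562 control 2. It reached the limit of the filter in 1 control and 1 DOT1L KO library and in no ENL KO library, so its test after ENL KO is not read. Of the other 17 genes 5 rose and 4 fell after ENL KO (median 0.10). Leaving out K562 control 2 reduced the 10 calls to 6. In HEL 6 of 18 rose and 9 fell (median -0.15), where 27.0% and 28.0% of all genes did, with the mannose 6-phosphate receptor IGF2R at 0.77, the cystatin CST3 at 0.57, the lysosomal membrane protein LAMP1 at -0.94 and SERPINB1, an inhibitor of neutrophil serine proteases, at -0.71. The named changes other than that of SERPINB8 had an adjusted p of at most 0.00182 (GNPTG after ENL KO, edgeR).

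Genes of a myeloid regulator list, which shares GATA1 with the erythroid list, were called in each knockout in a larger share than all genes. In HEL their share was near that of all genes. Of 17 such regulators 15 were tested in K562. After DOT1L KO 5 rose and 8 fell, with a median log2 fold change of -0.25, where 51.1% of all genes were called. The HLH inhibitor ID2 and the core-binding factor RUNX1 rose by 1.35 and 1.11, and CEBPD, a C/EBP factor, and XBP1, which eosinophil progenitors need, had -1.41 and -0.89. After ENL KO 3 rose and 12 fell (median -0.72), so that all 15 were called against 41.0% of all genes. ZFPM1, the GATA1 partner FOG1, and RUNX1 had 0.81 and 0.62. GFI1, the repressor needed for neutrophils, and CEBPA, the C/EBP factor that starts the granulocyte lineage, had -2.59 and -2.35. In HEL 3 of 14 rose and 5 fell (median -0.07), where 55.0% of all genes were called, with ID1 at 0.56, ID2 at 0.51, MYB at -0.87 and XBP1 at -0.54. The largest adjusted p of these named changes was 0.000716 (CEBPA, edgeR).

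SPI1 (PU.1), a factor of both granulocytes and monocytes, was named after its values were seen. It was named because it kept the order of LYZ and PRG2 in K562, so its p-values are not a test of that order. It had 24.0 and 25.0 CPM in the controls, 48.7, 46.9 and 46.7 CPM after DOT1L KO and 11.4, 13.7 and 7.95 CPM after ENL KO. The groups did not overlap, and the log2 fold changes were 0.95 (SE 0.133, adjusted p 4.58e-05) and -1.13 (SE 0.144, adjusted p 3.12e-05, edgeR). In HEL it fell by 0.30 (SE 0.062, adjusted p 4.22e-05, edgeR), from 55.3 and 55.2 to 44.9 and 44.7 CPM. ID2 also kept this order in K562, with 1.35 after DOT1L KO and -0.72 after ENL KO. Of the 15 tested regulators 5 rose and 8 fell after DOT1L KO. GFI1 had -0.62 there (adjusted p 0.0168, edgeR), and CEBPA and CEBPB had -0.06 and -0.12 and were not called. CEBPE, the C/EBP factor of late granule genes, did not pass the filter in either line and had at most 14 counts in a library.

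The summed level of markers of eosinophils, basophils and mast cells had the order of PRG2 in each line. The list held 13 genes, and their sum was 19.5 to 21.8 CPM in K562 controls, 54.2 to 59.1 CPM after DOT1L KO and 2.74 to 3.86 CPM after ENL KO. In K562 most of this sum was KIT: without it the other 12 genes summed to 4.14 to 5.34, 7.24 to 7.36 and 1.63 to 2.00 CPM in the same order of groups. In HEL the sum of 13 was 1879 to 1919 CPM in controls and 962 to 980 CPM after KD. The defining eosinophil genes EPX and RNASE3 had at most 2 counts in every HEL library, and in K562 the mast cell genes CPA3, FCER1A, TPSAB1 and TPSB2 had at most 2 in every library. The part of such cells, or of such a programme, in the result for PRG2 was not tested.

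Of 6 tested list members IL5RA, HDC and EPX passed the filter only through the DOT1L KO libraries, so their tests after DOT1L KO are not read. Of the other 3 genes 2 rose and 1 fell, beside 26.9% and 24.2% of all genes. HDC, the enzyme that makes histamine, had 4 and 4 counts in the controls and 79, 101 and 59 after DOT1L KO (fitted log2 fold change 4.08, SE 0.368). IL5RA, the receptor through which IL-5 drives eosinophils, had 0 counts in both controls and 6, 19 and 10 after DOT1L KO, at least 7.05-fold higher against the floor of 3 counts in the group. SIGLEC8, an eosinophil and mast cell lectin, fell (log2 fold change -1.15, SE 0.201, adjusted p 0.000321, edgeR). The stem cell factor receptor KIT and MS4A2, the beta chain of the IgE receptor, were the 2 that rose, by 1.63 and 0.91 (adjusted p 2.55e-08 and 0.0277, edgeR). KIT, MS4A2 and FCER1A were named after their values were seen. Over all 6 genes 5 were called, and 3 without DOT1L KO 2, where IL5RA was no longer tested.

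After ENL KO 4 of the 6 fell and none rose, beside 22.2% of all genes lower. The 3 that did not pass the filter through 1 group alone were all among those that fell. KIT went from 15.4 and 16.4 CPM to 1.98, 1.75 and 1.11 CPM (log2 fold change -3.26, SE 0.149, adjusted p 1.64e-09, edgeR). The eosinophil peroxidase gene EPX went from 20 counts over the controls to 2, a ratio of 13.4 with a counting interval of 3.24 to 118 (adjusted p 0.00519, edgeR). MS4A2 and SIGLEC8 were the other genes that fell, with -2.76 and -1.11. The median over the 5 tested genes with counts was -2.76. IL5RA had no count in either group, and HDC, with 8 counts over the controls and 3 over ENL KO, was not called (adjusted p 0.120, edgeR).

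HEL controls held HDC, FCER1A, KIT and CPA3 at high levels and the tryptase genes at low ones, with 16 to 30 counts of TPSB2 and 2 to 9 of TPSAB1. Of 7 tested genes TPSB2 passed the filter only through the controls, so its test is not read. Of the other 6, 4 fell and none rose, with a median log2 fold change of -0.93, beside 28.0% of all genes lower. CPA3, the mast cell carboxypeptidase, had 45.5 and 47.9 CPM in controls and 17.7 and 19.8 CPM after KD (log2 fold change -1.32, SE 0.082, adjusted p 1.01e-19, edgeR). HDC went from 657 and 661 CPM to 328 and 334 CPM, KIT from 454 and 466 to 208 and 213 CPM, and FCER1A, the alpha chain of the IgE receptor, from 707 and 731 to 396 and 397 CPM. Their log2 fold changes were -0.99, -1.13 and -0.86, with adjusted p of 5.62e-33, 1.12e-33 and 2.02e-30 (edgeR). The tryptase gene TPSB2 had a fitted -1.18 and lost its call with DESeq2, and its reads can be split with the near-identical TPSAB1. MS4A2 and SIGLEC8 had 0.10 and 0.21 and were not called. Each of these HEL changes was smaller than the -1.97 of PRG2, and the difference from PRG2 was not tested.

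The line difference was tested for the listed genes, and no such test is given for PRG2 and LYZ. The lists were chosen with earlier results of these data known, and KIT was named after its values were seen. The p-values below thus do not stand apart from that choice. HDC and KIT were higher in K562 after DOT1L KO and lower in HEL after KD. Their difference between the lines in edgeR's interaction test was -5.06 (SE 0.254, adjusted p 1.40e-12) and -2.74 (SE 0.087, adjusted p 1.04e-15) on the log2 scale. This test used 1 estimate of spread for both lines. Its SE were below those of the K562 change alone, 0.368 for HDC and 0.105 for KIT, so its p-values can be too small. In K562 HDC passed the filter only through the DOT1L KO libraries, in HEL through both groups. SIGLEC8 differed the other way (1.37, SE 0.401, adjusted p 0.00921, edgeR). Of 9 list genes in this test 3 passed, beside 38.9% of all genes. FCER1A, CPA3 and TPSB2 had too few K562 counts to compare the lines.

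**Figure D3:**
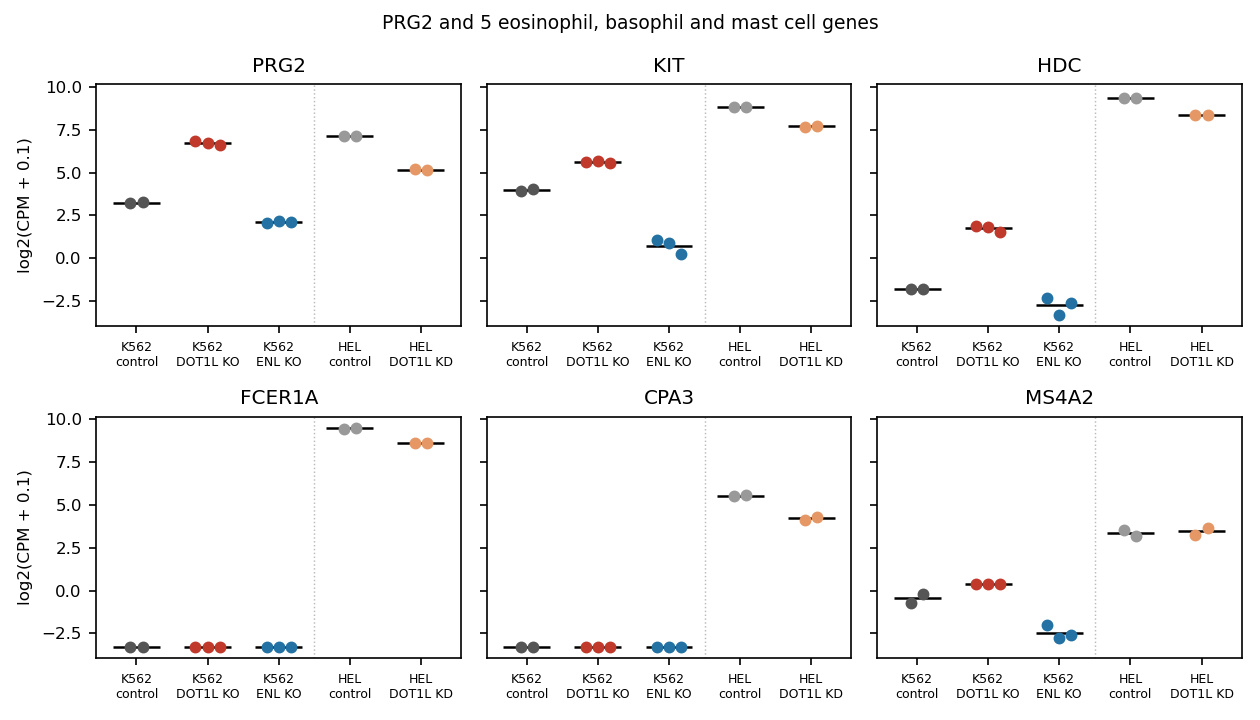
log2(CPM + 0.1) of PRG2 and of 5 genes of the eosinophil, basophil and mast cell list, chosen for display after their values were seen; points are libraries, lines are group means, and the dotted line parts the tables. PRG2, KIT and HDC are highest in K562 after DOT1L KO and fall in HEL after KD, FCER1A and CPA3 sit at 0 CPM in K562, and MS4A2 overlaps between the HEL groups. The other list genes are not shown, among them SIGLEC8, which fell in K562 after DOT1L KO (log2 fold change -1.15) and was not called in HEL (0.21).

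The 11 neutrophil markers, of which ELANE and MPO are members and 5 are on the granule list above, summed to 1.75 to 2.09 CPM in K562 controls, 10.1 to 11.0 CPM after DOT1L KO, 0.435 to 0.716 CPM after ENL KO, and 3.25 to 3.99 CPM over the HEL libraries. The 1 marker tested in K562, the G-CSF receptor CSF3R, rose from 23 and 23 counts to 223, 276 and 209 after DOT1L KO (log2 fold change 3.17, SE 0.198, adjusted p 2.00e-08, edgeR) and had 0, 1 and 2 counts after ENL KO. In HEL 2 markers were tested and none was called. The defining genes CEACAM8, CAMP, MMP8, S100A12 and CD177 had under 3 counts in every library.

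The 14 monocyte and macrophage markers summed to 48.2 to 50.1 CPM in K562 controls, 62.8 to 68.5 CPM after DOT1L KO and 41.3 to 42.1 CPM after ENL KO. Of 7 tested genes 4 did not pass the filter through 1 group alone. After DOT1L KO 2 of these 4 rose and 1 fell (median 0.81), beside 26.9% and 24.2% of all genes. The integrin ITGAM had 1.26 and the lysosomal protein CD68 -1.50. The proteoglycan VCAN had a fitted 3.24, but it passed the filter only through the DOT1L KO libraries, so its test is not read. After ENL KO 1 of the 7 rose and 4 fell (median -1.73), where 41.0% of all genes were called, with CD68 at 0.54 and the sialic acid lectin CD33 at -3.55. Of the 4 genes that did not pass the filter through 1 group alone, 1 rose and 3 fell after ENL KO (median -3.23). TYROBP, an adaptor of myeloid receptors, went from 26 counts over the controls to 3 (ratio 11.6, counting interval 3.55 to 59.7). In HEL the list summed to 180 to 186 CPM in controls and 191 to 196 CPM after KD, with 2 of 6 higher (ITGAM 1.07, CD33 0.56) and 2 lower (TYROBP -0.93, CD68 -0.58), where 55.0% of all genes were called. The named changes other than that of VCAN had an adjusted p of at most 0.00539 (TYROBP in ENL KO, edgeR). The monocyte genes FCN1, S100A8 and CLEC7A had under 3 counts in every library of both lines. Whether these cell types or programmes have a part in the level of LYZ was not tested.

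Most of the erythroid markers rose in each comparison with a control. After DOT1L KO 9 of 10 rose, beside 26.9% of all genes, with ALAS2, the first enzyme of haem synthesis in red cells, at 2.67, and the transferrin receptor TFRC fell by 0.27. After ENL KO 7 rose, beside 18.8% of all genes (ALAS2 1.51, GFI1B 1.04), and TFRC fell by 0.26, a call lost without K562 control 2. In HEL 7 rose and none fell, beside 27.0% of all genes higher (HBG2 0.72). HBG2 shares reads with its near copy HBG1, and its value is uncertain. The named erythroid changes had an adjusted p of at most 0.00299 (TFRC after ENL KO, edgeR).

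The neighbours of PRG2 were examined to see whether the change was shared along the chromosome. Within 100 kb of PRG2 the tables list 7 genes, and 5 passed the filter in each line. Of these 5, 3 rose after DOT1L KO, beside 26.9% of all genes, and all 3 lie upstream of PRG2. SLC43A3, a purine carrier at 16.297 kb, rose by 0.34, RTN4RL2, a Nogo receptor homologue at 69.871 kb, by 2.01, and SLC43A1, an amino acid carrier at 93.874 kb, by 0.49. Their adjusted p were 9.44e-05, 1.22e-08 and 7.43e-05 (edgeR). RTN4RL2 went from 7.11 and 6.34 CPM to 25.7, 26.6 and 28.8 CPM and to 2.90, 3.94 and 3.19 CPM after ENL KO (log2 fold change -1.00, adjusted p 0.000107, edgeR), which is the order of PRG2, while SLC43A3 and SLC43A1 were not called after ENL KO. In HEL SLC43A3 and SLC43A1 fell by 0.24 and 0.40 (adjusted p 1.97e-08 and 4.39e-05, edgeR), where 27.0% of all genes were higher and 28.0% lower. RTN4RL2, at 30 and 39 counts in HEL controls, had -0.24 and was not called (adjusted p 0.473, edgeR). Downstream, the histone chaperone gene SSRP1 (50.91 kb) and TNKS1BP1 (61.848 kb) were not called in either K562 knockout against control and had 0.08 and 0.48 in HEL (adjusted p 0.0460 and 1.23e-08, edgeR), of which the call of SSRP1 was lost with DESeq2.

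**Figure D4:**
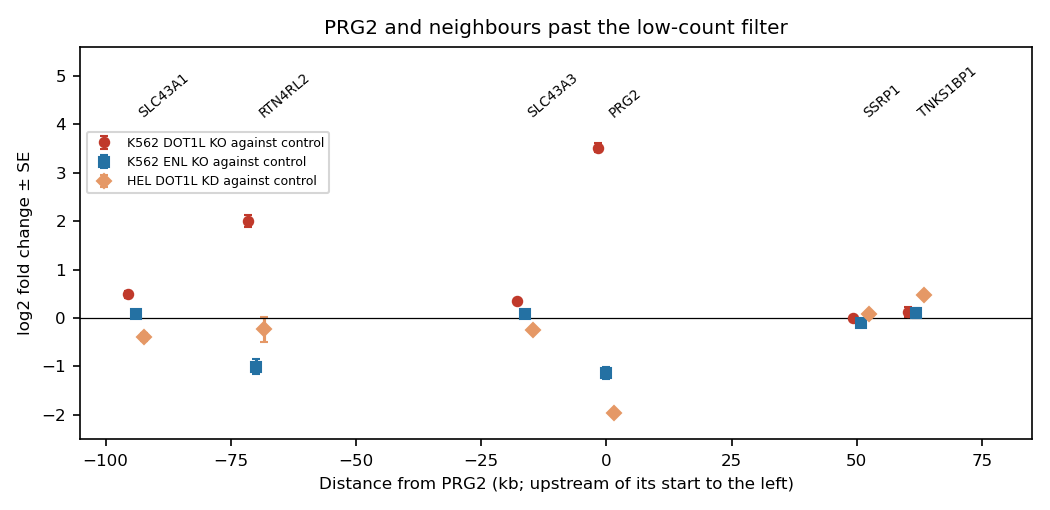
log2 fold change with its SE of PRG2 (at 0) and of the 5 neighbours within 100 kb that passed the filter, by distance in kb, with genes upstream of the PRG2 start to the left, for DOT1L KO and ENL KO in K562 and the KD in HEL. PRG2 has the change of largest size in all 3 comparisons, and RTN4RL2 is next in K562.

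Around LYZ 3 genes lie within 100 kb, and 2 were tested. YEATS4, whose protein carries the same type of acyl-lysine reader domain as ENL, starts 5.477 kb downstream of LYZ. It rose by 0.38 after DOT1L KO and by 0.35 after ENL KO and fell by 0.27 in HEL (adjusted p 0.00144, 0.00404 and 6.43e-05, edgeR), which is not the order of LYZ. The mRNA cleavage factor gene CPSF6 (73.996 kb) had 0.04, -0.06 and 0.11, with a call in HEL alone (adjusted p 0.0444, edgeR) that was lost with DESeq2.

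Beside the silent ELANE, PRTN3 and AZU1 genes the chromosome was active. Of 11 genes within 100 kb, 8 were tested in K562 and 4 in HEL. Over all genes tested, 51.1% were called after DOT1L KO, 41.0% after ENL KO and 55.0% after the HEL KD. CFD, the complement factor D gene at 3.416 kb, had -0.65 after DOT1L KO (adjusted p 0.0760, edgeR) and -0.45 after ENL KO, and neither was called. After DOT1L KO the kisspeptin receptor gene KISS1R fell by 1.48, PALM by 0.67 and PTBP1 by 0.16, and R3HDM4 rose by 0.20, while PLPPR3, MED16 and ARID3A were not called. After ENL KO PALM and PLPPR3 fell by 0.53 and 0.50, and R3HDM4 and MED16 rose by 0.56 and 0.15. In HEL ARID3A, MED16 and R3HDM4 rose by 0.46, 0.27 and 0.13 and PTBP1 fell by 0.15. These calls had an adjusted p of at most 0.0355 (MED16 after ENL KO, edgeR). Those of PTBP1 and R3HDM4 after DOT1L KO, of MED16 after ENL KO and of MED16 and R3HDM4 in HEL were lost under at least 1 alternative.

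Genes with the pattern of LYZ or PRG2 over the 5 groups were sought among 15467 genes, by the root-mean-square distance between their group means of log2 CPM after each gene's own mean was removed. The 5 nearest to LYZ were PLXDC2 (0.133), LOC100132249 (0.213), SEMA3E (0.214), KLHDC7A (0.281) and WNT2B (0.289). PLXDC2, a plexin domain receptor, had a mean log2 CPM of -0.71 in K562 controls, 2.53 after DOT1L KO and -1.19 after ENL KO, and -0.21 and -0.23 in the HEL groups, against 5.07, 8.25, 4.30, 5.61 and 5.63 for LYZ. KLHDC7A and WNT2B had 2 counts each over the K562 controls and none after ENL KO, so their distance depends on the prior count of 2.

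The 5 nearest to PRG2 were ADCYAP1 (0.411), FERMT2 (0.412), SGCZ (0.448), PRSS23 (0.492) and ANKRD33B (0.518), all farther than the 5 of LYZ. FERMT2, the integrin activator kindlin-2, had -0.01, 3.12 and -1.36 in the K562 control, DOT1L KO and ENL KO groups and 4.08 and 2.80 in HEL before and after KD, against 3.22, 6.72, 2.11, 7.18 and 5.22 for PRG2. LYZ and PRG2 lay 1.37 apart. In nearness LYZ ranked 570 to PRG2, and PRG2 ranked 4177 to LYZ. The distances describe 5 group means of 12 libraries that share line and depth.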

How the data were processed

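RNA-seq of 13 of the 74 samples was used, and the other 61 samples were not analysed here. The authors deposited whole-number counts per gene, fragments in the K562 table and reads in the HEL table per the file headers, unscaled and with replicates not pooled. Tools named in the submitters' processing notes are fastp 0.13.1, Bowtie2 2.3.4.1, HISAT2 2.1.0 and featureCounts 1.6.1, and the use of strand in counting is not given in the sources used here. Symbols of 26353 genes (93.7%) matched RefSeq GRCh38.p14, and 99.745% of those on main chromosomes overlapped their position there. Coordinates are those of the tables.

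Genes were filtered with filterByExpr (minimum count 10, minimum total 15), scaled with TMM factors and tested with the quasi-likelihood test of edgeR 4.0.16 in R 4.3.3, with the 3 K562 groups in one fit, HEL in a second, and 9 libraries in a joint fit for the line difference. SE was the log2 fold change over the root of F. Exact binomial counting intervals (95%) came from SciPy 1.17.1, and a count of 0 was given a floor of 3 counts. The alternatives were DESeq2 1.42.0, upper-quartile and library-size scaling, no filter, a fold limit, the 2 compared groups alone, all 3 control columns, a replicate block and each library left out. The edgeR scripts were tested on simulated data.

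The 10 members are all described. The rule for other names was the 2 largest increases and 2 largest decreases past the threshold in each fixed list and comparison with a control, the tested neighbours within 100 kb, and the 5 genes nearest in pattern to LYZ and to PRG2. The lists were other neutrophil granule genes, granule protein processing, myeloid regulators, and erythroid, neutrophil, monocyte, and eosinophil, basophil and mast cell markers. For 1 listed gene the values are not reported here. Members and lists were chosen with earlier results of these data known.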

Additional observations from a re-analysis of the deposited data

Results flagged for a closer look

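The change of PRG2 in HEL minus its change in K562 was -5.47 on the log2 scale. Every K562 DOT1L KO library was above and every HEL KD library below its controls, and the difference was not tested, since PRG2 was chosen for it.

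Apart from PRG2, a set of 47 genes named above was measured in both lines. Of these, 37 had a different change in HEL and K562 by edgeR's interaction test (adjusted p under 0.05), beside 38.9% of all genes tested. The set leaves out LYZ, GATA1, KLF1, TAL1 and the genes nearest in pattern to LYZ or PRG2. Many of the 47 were named for a large change in one of these comparisons, so their share was partly set by that choice and is not a test. The values are the log2 change in HEL minus that in K562. Among eosinophil, basophil and mast cell markers the difference was -5.06 for HDC, -2.74 for KIT and 1.37 for SIGLEC8. Among monocyte and neutrophil markers it was -3.65 for VCAN, -3.01 for CSF3R, -1.28 for TYROBP, -0.68 for CD33 and 0.94 for CD68. HDC and VCAN passed the filter in K562 only through the DOT1L KO libraries, and in HEL through both groups. RNASE6 of the granule list, counted among the 37, had -2.49. It passed the filter in each line only through the DOT1L-depleted libraries, so its test is not read.

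Among the myeloid regulators it was -1.33 for RUNX1, -1.24 for SPI1, -0.82 for ID2, -0.52 for ZFPM1, -0.35 for MYB, 0.36 for XBP1, 0.83 for ID1 and 1.14 for CEBPD. Among genes that process, pack or inhibit granule proteins it was -1.05 for LAMP1, -0.86 for GNPTG, -0.43 for SERPINB1, -0.35 for CD63, 0.29 for SERPINB6, 0.36 for SRGN, 0.38 for CST3, 0.64 for CTSC and 1.36 for IGF2R. Among erythroid markers it was -2.52 for ALAS2, -0.53 for GFI1B and 0.69 for TFRC. CEBPD passed the filter in HEL only through the controls, and its change there was -0.29 (SE 0.428) and was not called.

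Among the neighbours the difference was -2.22 for RTN4RL2, -0.87 for SLC43A1, -0.57 for SLC43A3 and 0.36 for TNKS1BP1 near PRG2, -0.63 for YEATS4 near LYZ, and 0.56 for ARID3A near ELANE. The targeted genes had -1.10 (DOT1L) and 0.39 (MLLT1). Knockdown against knockout and read against fragment counting go with the line in all of these values. The joint fit used 1 estimate of spread for both lines, so p-values of the line difference can be too small.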

How the results depend on the processing

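No called result changed direction under any alternative run. With a size of at least 1 on the log2 scale required as well, the genes called were 2265 for DOT1L KO, 1573 for ENL KO, 2744 between the knockouts, 738 for the HEL KD and 1950 for the line difference, in place of 7305, 5863, 8606, 6951 and 5980. DESeq2 called 4561 genes in HEL. Leaving out 1 library at a time gave 5664 to 6809, 4094 to 5658, 7665 to 8274, 5884 to 6207 and 4887 to 6473 calls in the same order.

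Replicate numbers were not taken to pair the samples, since the deviations of same-numbered libraries did not all correlate above 0.1: 0.22, 0.0531 and 0.0948 between the K562 knockouts, 0.144 and 0.101 between DOT1L KO and control, 0.15 and 0.0603 between ENL KO and control, and 0.000442 in HEL. With the number as a replicate block the calls were 8340, 7021 and 9605 in K562 and 6903 in HEL. Every library correlated best with one of its own number, which is a hint from the data, not the design.

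Depth limits the 8 members under the filter, where differences smaller than the counting intervals given were not detectable. Of the log2 fold changes of single named genes over all alternatives, 3335 kept their side of the threshold, 116 lost a call and 34 gained one. CFD after DOT1L KO was among those that gained one.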
